A study of Bos taurus with 2 samples.

Results

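Chromosome 19 carried 977 of the 14264 H3K4me3 regions mapped in the longissimus dorsi (LD), the loin muscle, of Angus steers. These regions were all peaks listed on chromosome 19 in the tender group (870 of 12930 peaks) or the tough group (780 of 11535), merged wherever a peak of one group overlapped a peak of the other by at least 1 bp. Peaks were called by SICER, which joins neighbouring 200 bp windows that hold more reads than the genome average would give, and each peak came with a score. The tender group was a pool of chromatin from 4 purebred Angus steers and the tough group a pool from 5, out of 19 steers of about 12 months of age that were graded by Warner-Bratzler shear force, a measure of how hard cooked meat is to cut (6.77 ± 0.56 kg in the tender and 19.93 ± 0.39 kg in the tough animals, as the labels give it). Both groups shared breed, muscle and antibody, no treatment is named, and they were chosen by the shear force. Because each group was 1 pooled library, the spread between steers could not be computed, no difference between the groups had a replicate check, and no test was made. LD is a mixed tissue of muscle fibres, vessels, connective tissue and fat cells, and a change in the share of a cell type cannot be told apart from a change of the mark within a cell.

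H3K4me3, histone H3 with 3 methyl groups on lysine 4, is placed around the start sites of active and poised genes by the SET1 and MLL methyltransferase complexes. Most peaks of the mark are narrow and sit on a single promoter or CpG island, whereas broad peaks are known from genes that a cell type transcribes steadily and strongly. Chromosomes rich in genes therefore usually hold many peaks. Bovine chromosome 19 is a short, gene-rich chromosome. By the current RefSeq annotation (ARS-UCD2.0) it carries the 6 skeletal myosin heavy chain genes MYH1, MYH2, MYH3, MYH4, MYH8 and MYH13, whose proteins form the thick filament, and the 10 HOXB genes, which pattern the body axis. It also carries TCAP (the titin cap), ENO3 (the muscle enolase), SLC2A4 (the insulin-responsive glucose transporter), FASN (fatty acid synthase) and COL1A1 (a chain of type I collagen). The peak lists name no genome build, and their positions do not belong to that assembly. No gene or sequence was therefore placed at a peak, and positions are given as listed, counted from 1.

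Peaks were denser on chromosome 19 than on any of the other 28 autosomes. It held 15.3 regions per Mb (exact Poisson 95% interval 14.3 to 16.3, for counting error only) against 5.30 on the other autosomes together, a 2.89-fold difference. Chromosomes 25 and 18 came next, with 13.0 and 12.6 regions per Mb, and chromosome 12 was lowest with 2.66. The chromosome made up 2.55% of the autosomal length, taken as the end of the last region on each chromosome, and 7.02% of the autosomal regions. Regions covered 49.8 bp of each kb of chromosome 19 and 14.97 bp of each kb elsewhere. The lead over the other autosomes was thus larger by covered length (3.32-fold) than by number. Much less of it appeared when the regions were set against genes. The annotation lists 1192 protein-coding genes on chromosome 19, or 18.65 per Mb of the listed length, rank 2 after chromosome 18 with 18.67. There were 82.0 regions per 100 such genes on chromosome 19 and 67.8 on the other autosomes together, which ranged from 44.1 to 90.6. By this measure chromosome 19 ranked 4 of 29, and chromosomes 25 and 18 had 79.1 and 67.5 regions per 100 genes. Genes were counted in another assembly than the peaks, so these ratios are approximate.

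**Figure D1:**
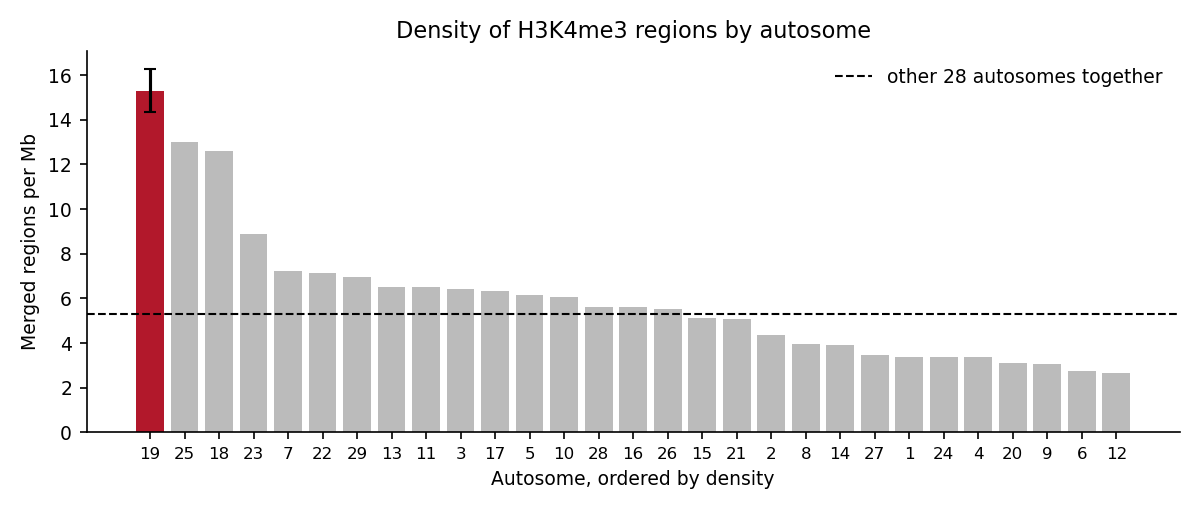
Merged H3K4me3 regions per Mb (bars) on each of the 29 autosomes, ordered by density, with the exact Poisson 95% interval on chromosome 19 and a dashed line for the other 28 autosomes together. Chromosome 19 stands at 15.3 regions per Mb, above chromosomes 25 (13.0) and 18 (12.6), while the dashed line lies at 5.30.

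The regions were spread unevenly along the chromosome. No region was listed in the first 5.29 Mb, and the first lay at chr19:5289201-5292200, present in both groups with a score of 136 in tender and 126 in tough. In successive segments of 5 Mb the density was then 10.2, 7.6 and 9 regions per Mb up to 20 Mb, 19 and 22.4 between 20 and 30 Mb, and 8.6 between 30 and 35 Mb. The crowded middle followed, with 26.8 regions per Mb between 35 and 40 Mb and 28.8 between 40 and 45 Mb, where 144 regions lay. Beyond it the segments held 17.4, 23.2 and 16.4 regions per Mb, and the last, from 60 Mb to the final region, held 7.67. Even the sparsest segment with any region was therefore above the average of the other autosomes.

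Counted in bins of 1 Mb by region centre, the 63 full bins of chromosome 19 held a median of 14 regions, against 3 in the 2431 full bins of the other autosomes. At least 20 regions were found in 24 of its bins (38.1%) and in 4.28% of the bins elsewhere, and the next chromosome by this count, chromosome 18, had 15 such bins. The fullest bin, 27 to 28 Mb, held 45 regions, of which 39 were called in both groups, 1 in tender alone and 5 in tough alone. The next were the bins starting at 35 and 43 Mb with 40 regions each, 51 Mb with 36 and 23 Mb with 33. Only 7 bins were empty (11.1%, against 21.9% elsewhere), and 5 of these formed the stretch before the first region.

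**Figure D2:**
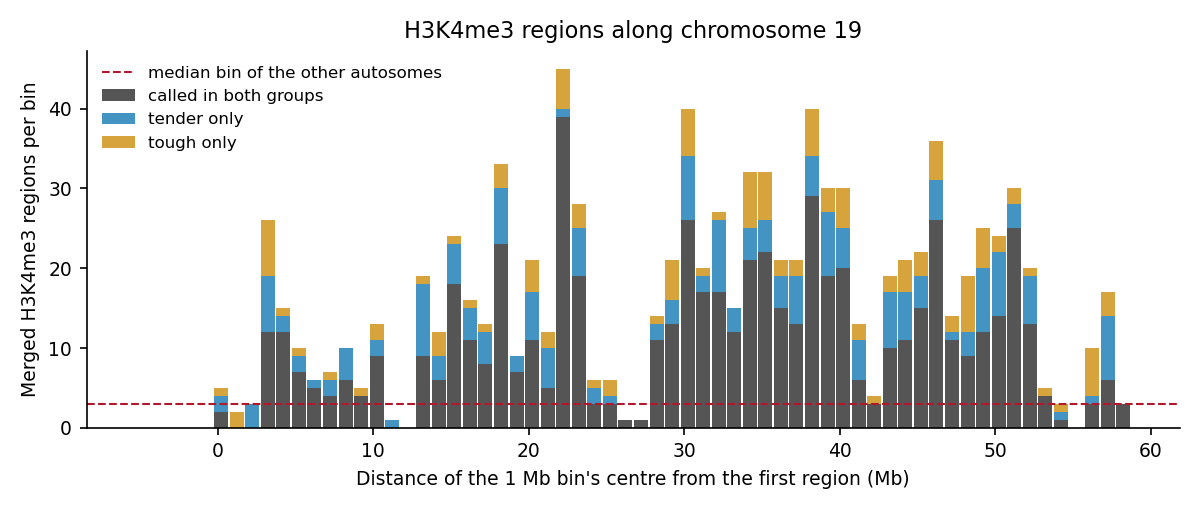
Merged H3K4me3 regions per 1 Mb bin along chromosome 19, as the distance of the bin's centre from the first region in Mb, stacked by whether a region was called in both groups (grey), in tender only (blue) or in tough only (yellow). The fullest bin, of 45 regions, lies 22.2 Mb from the first region and those of 40 lie 30.2 and 38.2 Mb from it, most stand above the median of 3 in the other autosomes (dashed line), and the last bin is incomplete.

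The median gap was 20.2 kb (quartiles 7.4 and 56.9 kb), the shortest of the 29 autosomes, against 50.8 kb (15.6 and 146.8 kb) elsewhere. Gaps under 10 kb made up 30.7% of all gaps (Wilson 95% interval 27.9 to 33.7%), against 18.2% (17.5 to 18.8%) elsewhere and 32.0% on chromosome 25. The chromosome had 11 gaps of at least 500 kb, which took 17.7% of its length, whereas such gaps took 58.0% of the other autosomes. With the stretch before the first region counted as a gap the share was 26.0%, still the lowest of the 29. The 5 longest gaps were chr19:16253401-18060800 (1.81 Mb), chr19:6049601-7607200 (1.56 Mb), chr19:59643401-61069600 (1.43 Mb), chr19:31275601-32694800 (1.42 Mb) and chr19:62684401-63725200 (1.04 Mb). In these lists the longest gap was longer on every other autosome, from 2.14 Mb on chromosome 25 to 9.37 Mb on chromosome 11. The empty stretch before the first region was an exception, since with it chromosome 19 ranked 13 of 29 from the longest.

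Runs of at least 5 regions with no gap over 20 kb were taken as clusters. Chromosome 19 had 34 of them, which held 243 of its regions (24.9%, Wilson 95% interval 22.3 to 27.7%), against 10.3% (9.78 to 10.8%) on the other autosomes. Chromosome 25 had a higher share (28.1%) and chromosome 18 a lower one (21.8%). The largest cluster, chr19:8889201-9043000, held 15 regions within 153.8 kb, of which 10 were called in both groups, 3 in tender alone and 2 in tough alone. Its summed score was 572 in tender and 725 in tough. The second, chr19:40960401-41086800, held 14 regions within 126.4 kb, 10 of them in both groups, with a summed score of 1044 in tender and 879 in tough. The third, chr19:44528001-44666200, held 11 regions, 9 of them in both groups and 5 at least 5 kb long. Clusters of 10 regions lay at chr19:28354001-28465800, chr19:35745001-35863000 and chr19:45398601-45522200. The first of these had the highest summed score of the 6 in both groups, 1757 in tender and 1233 in tough. Regions inside clusters were somewhat longer (median 3200 bp) than those outside (2800 bp), and 17.7% of them were at least 5 kb long, against 11.4% outside.

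Regions on chromosome 19 were also longer than elsewhere. The median region measured 3000 bp (quartiles 2200 and 4000 bp), the longest median of the 29 autosomes, against 2600 bp elsewhere. Broad regions, taken as those of at least 5 kb, numbered 127, or 13.0% (Wilson 95% interval 11.03 to 15.3%), against 7.69% (7.25 to 8.16%) elsewhere. The greater length was present in each group's own list. The median peak in tender was 2200 bp long (95% interval 2200 to 2400 bp from order statistics) against 2000 bp elsewhere, and in tough it was 2800 bp (2600 to 3000 bp) against 2400 bp. Broad peaks made up 5.06% of the tender peaks (44, against 2.79% elsewhere) and 10.8% of the tough peaks (84, against 6.64%). Both shares were the highest of the 29 autosomes, although in tender chromosome 22 came close with 5.03%, and in tough chromosome 29 had 10.3%.

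The scores did not stand out in the same way. A SICER score adds up how improbable each window's reads are under a Poisson model of the genome average (as negative natural logs), so it grows with both length and reads. The median score on chromosome 19 was 54.7 in tender (95% interval 51.2 to 58.8) against 60.5 elsewhere, rank 24 of 29 from the highest. In tough it was 57.7 (53.7 to 60.3) against 58.2, rank 15. Divided by the number of windows, the median was 5.92 in tender against 6.64 elsewhere (rank 27), and 4.52 in tough against 5.14, the lowest of the 29 autosomes. Chromosome 19 thus combined the highest share of broad peaks with a low score per window over all its peaks in both groups. On the other autosomes longer peaks also had less per window, with 8.74 in tender up to 1400 bp and 4.98 from 2600 to 3800 bp. The broad peaks of chromosome 19 themselves had 6.66 in tender against 5.66 elsewhere, and 3.77 in tough against 3.93. Per kb of peak, the reads behind the scores were also fewer than elsewhere in both groups, while reads per peak were fewer in tender only. On the chromosome they could be solved from the score for 97.6% of tender peaks and 98.5% of tough peaks, and the median was 20 reads in tender (22 elsewhere) and 23 in tough (23 elsewhere), or 11 and 9.23 reads per kb of peak against 12.1 and 10.4.

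**Figure D3:**
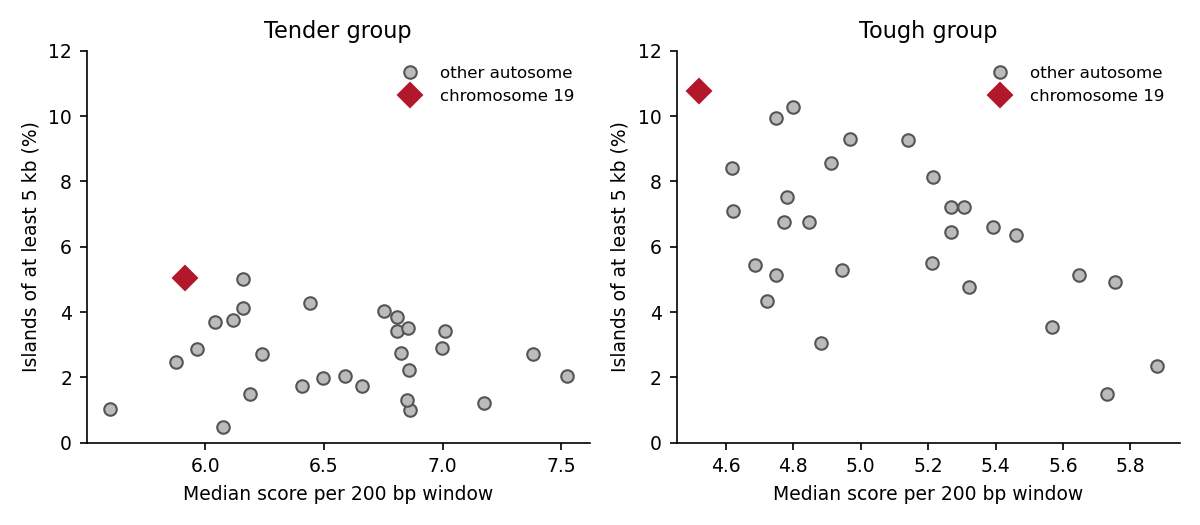
Share of peaks of at least 5 kb (vertical axis, %) against the median score per 200 bp window (horizontal axis, no unit) for each of the 29 autosomes, in the tender (left) and the tough group (right). Chromosome 19 (diamond) has the highest broad share in both, 5.06% and 10.8%, at a score per window of 5.92 and 4.52, the lowest of the 29 in tough.

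Within classes of like length, the median score was lower on chromosome 19 than elsewhere in each class below 5 kb. Among peaks shared between the groups it was not lower, at 75.4 in tender against 75.2 elsewhere and 66.4 in tough against 65.3. Peaks of 1600 to 2400 bp in tender had a median score of 52.2 (95% interval 48.7 to 57.7) on chromosome 19 and 62.3 (60.6 to 64.0) elsewhere. In tough the same class had 52.2 (48.1 to 58.4) and 55.1 (53.7 to 56.4), intervals that overlapped. Peaks of up to 1400 bp, of 2600 to 3800 bp and of 4000 to 4800 bp had a lower median on chromosome 19 in both groups as well, with overlapping intervals. For broad peaks the order turned, with a median score of 205 in tender (152 to 251) against 178 (158 to 189), and 126 in tough (89.1 to 160) against 119 (112 to 127), but these intervals overlapped too.

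The 10 regions with the highest summed score were all called in both groups and all but one lay between 23 and 46 Mb. The top region, chr19:51859401-51870800, was the exception and scored 537 in tender (1 peak of 9600 bp) and 450 in tough (1 peak of 11200 bp). The second, chr19:28397801-28412400, was also the widest of the chromosome. It was a single peak of 14600 bp with a score of 430 in tough but 3 separate peaks in tender, of 4000, 3800 and 2600 bp, with scores of 174, 220.5 and 144 that rested on 60, 70 and 47 reads. The third, chr19:43371401-43382800, was likewise 1 tough peak of 11400 bp (score 371) and 2 tender peaks, of 7000 and 600 bp (386 and 30.6). The remaining 7 were chr19:45438601-45447000, chr19:28134401-28141800, chr19:39064201-39072000, chr19:27591401-27598800, chr19:23381801-23388400, chr19:41044401-41052800 and chr19:23943201-23948800. Of these, chr19:39064201-39072000 scored alike in the groups (311 and 313), chr19:23381801-23388400 scored higher in tough (260 in tender, 320 in tough), and the other 5 scored higher in tender.

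Among the other wide regions, the lengths called by the groups differed in some places. At chr19:51244001-51257000 (13000 bp) the tender group had 2 peaks, of 5600 bp with 63 reads and 2600 bp with 21 reads, and the tough group had 1 of 10600 bp with 87 reads. At chr19:39647201-39658600 a tender peak of 1800 bp with 26 reads lay inside a tough peak of 11400 bp with 69 reads. The other 2 of the 5 widest were the first and the third by summed score. Over the whole chromosome, 27 regions (2.76%, Wilson 95% interval 1.91 to 3.99%) held more than 1 tender peak and 13 (1.33%, 0.779 to 2.26%) more than 1 tough peak. On the other autosomes 231 (1.79%, 1.57 to 2.03%) and 93 (0.719%, 0.587 to 0.880%) did, and the intervals overlapped in both groups.

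Of the 977 regions, 632 were called in both groups, 210 in tender alone and 135 in tough alone. The share in both, 64.7% (Wilson 95% interval 61.6 to 67.6%), was below the 69.3% (68.5 to 70.1%) of the other autosomes and ranked 25 of 29, while the like-dense chromosomes 18 and 25 had 73.9% and 70.3%. Of the tender peaks, 24.1% (21.4 to 27.1%) had no tough peak at the same place. Over all autosomes that share was 21.7%, so chromosome 19 lay close to the background, and its interval met that of the other autosomes (20.8 to 22.3%). Of the tough peaks, 17.3% (14.8 to 20.1%) had no tender peak, against 14% over all autosomes and 13.7% (13.1 to 14.4%) on the others, rank 4 of 29, and its interval lay above that of the others. Among peaks that scored 2 times the lowest value or more, the shares were 2.75% in tender and 1.36% in tough, against 3.99% and 1.38% on the other autosomes, so neither share was above that elsewhere among the stronger peaks. Along the chromosome the share of regions in both groups was lowest beyond 60 Mb, at 40% of only 30 regions. It was 51.0% of the 51 regions between 5 and 10 Mb, close to the 53.3% of the 45 regions between 15 and 20 Mb. In the other segments with regions it lay between 57.5% and 70.5%.

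Peaks of a single group were weak. Their median score was 29.03 in tender and 29.06 in tough, against 75.4 and 66.4 for peaks that were shared, and their median was 12 and 14 reads against 26 in both groups for shared peaks. They took 21.7% of the tender peak length but 9.72% of the tender score, and 18.01% and 7.56% in tough. Those of the tough group were long for their reads, with a median of 3200 bp, against 2600 bp for such peaks elsewhere and 2200 bp for those of the tender group on the same chromosome.

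The highest-scoring tender peaks without a tough peak were chr19:20419001-20422000 (score 81.8, 28 reads), chr19:10528801-10530200 (76.7, 25 reads), chr19:46464201-46469200 (65.4, 29 reads), chr19:57826401-57829000 (64.6, 25 reads) and chr19:56711601-56714400 (58.8, 23 reads). They were between 1400 and 5000 bp long. The corresponding tough peaks were chr19:36898801-36905400 (score 74.97, 33 reads), chr19:61745801-61749400 (66.5, 28 reads), chr19:15293601-15298800 (66.2, 31 reads), chr19:27763001-27768600 (65.8, 29 reads) and chr19:39901801-39908800 (58.7, 29 reads). These were between 3600 and 7000 bp long, a range that reached higher than that of the tender peaks but overlapped it. None of these 10 peaks came near the scores of the leading shared regions.

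For direct comparison, 594 peaks of each group overlapped one peak of the other group and no further peak. Their scores differed little. The median log2 ratio of tough to tender score was -0.15 (95% interval -0.20 to -0.11), against -0.19 on the other autosomes. In 33 pairs (5.56%, Wilson 95% interval 3.98 to 7.70%) the score was at least 2-fold higher in tender, and the share was 7.51% over all autosomes. In 11 pairs (1.85%, 1.04 to 3.29%) it was at least 2-fold higher in tough, against a background of 1.82%. Neither share stood out from the background, as the interval held it in both cases. The split between the directions moved with the scaling, since with ratios centred on the median of all autosomal pairs 22 pairs (3.70%) passed in tender and 27 (4.55%) in tough. The other autosomes moved alike under this centring, to 3.8% and 3.9%.

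The reads of the pairs were solved from the same scores, so they are no separate check of the score ratios. With the reads of 576 pairs divided by the mean number of reads per window of each library (0.157 in tender and 0.182 in tough), 29 pairs (5.03%) were at least 2-fold higher in tender and 4 (0.694%) at least 2-fold higher in tough, and the shares over all autosomes were 6.03% and 0.716%. Without this scaling the median log2 ratio of tough to tender reads was 0 (-0.05 on the other autosomes). With it the median was -0.22 (-0.27 on the others), so on chromosome 19 the median ratio of reads leaned to tender only after scaling. The counts above and the intervals below used the scaled ratio. Counting error was large, as the 95% interval of the ratio of reads included equality in 494 of the 576 pairs. It lay on the tender side in 74 (12.8%, against 13.2% over all autosomes) and on the tough side in 8 (1.39%, against 0.947%).

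The named pairs with the largest score ratios had 9 to 22 reads in the weaker group. The median peak of the chromosome had 20 in tender and 23 in tough, so some were close to it. These pairs were chosen by the scores from which the reads were solved, so their ratios of reads are descriptions only. At chr19:19910001-19911600 the tender score was 103 (33 reads) and the tough score 26.1 (12 reads), a 3.94-fold difference. The depth-scaled ratio of tough to tender reads there was 0.312 (95% interval 0.147 to 0.620). The next tender-high pairs were those whose tender peaks lay at chr19:34102001-34107400 (40 and 12 reads), chr19:36540201-36543200 (31 and 13 reads), chr19:35954001-35959600 (46 and 19 reads) and chr19:12660601-12663400 (51 and 22 reads), with scores 3.70 to 2.76-fold higher in tender. In the other direction, the tender peak chr19:55826401-55828600 had a score of 33.1 (14 reads) and its tough partner 115 (41 reads), a 3.47-fold difference with a ratio of reads of 2.51 (1.34 to 4.99). The other tough-high pairs had tender peaks at chr19:35800801-35803600 (11 and 28 reads), chr19:8165201-8167000 (12 and 27 reads), chr19:27199401-27201600 (19 and 37 reads) and chr19:28389001-28389800 (9 and 22 reads), with scores 2.49 to 2.24-fold higher in tough. The intervals of the ratio of reads included equality in the last 3 of these (0.946 to 4.18, 0.937 to 3.08 and 0.928 to 5.18). At chr19:35800801-35803600 the interval lay above equality (1.05 to 4.86), and in each named tender-high pair it lay below.

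The groups also differed in the length of paired peaks. The tough peak was longer in 349 pairs (58.8%, against 59.7% over all autosomes), the tender peak in 198 (33.3%, against 30.3%), and 47 pairs were of equal length. The median difference, tough minus tender, was 200 bp (95% interval 200 to 400 bp) and the mean 470 bp, and elsewhere they were 200 and 392 bp. Longer tough peaks were thus found on the other autosomes too, at nearly the same share. The number of reads per window was also higher in the tough library by a factor of 1.17, and its part in the length difference was not tested.

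The largest difference in length was that at chr19:39647201-39658600 described above, of 9600 bp. In 4 further pairs the tough peak was longer by 7000 bp (tender peak at chr19:25009801-25010600, 27 reads against 50), 5800 bp (chr19:44642401-44643000, 19 against 40), 5600 bp (chr19:44561201-44563800, 35 against 55) and 5400 bp (chr19:51577001-51582400, 57 against 76). Tender peaks were longer by 3000 bp at most. This difference was reached at chr19:34102001-34107400 and chr19:35954001-35959600, and differences of 2800 bp were found at chr19:15422201-15427400, chr19:23320801-23325800 and chr19:36433601-36439600. The long tail of the differences thus lay on the tough side. Of the 5 tough-long pairs, 2 lay in the cluster at chr19:44528001-44666200.

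**Figure D4:**
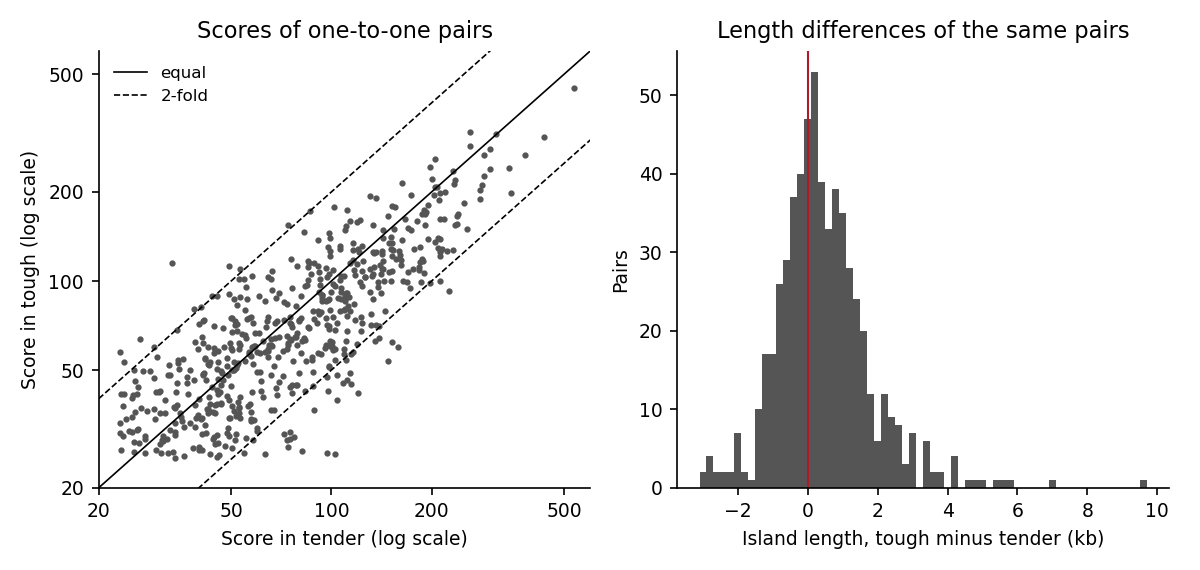
The 594 one-to-one pairs of chromosome 19. Left, score in tough against score in tender on log axes, with lines of equality (solid) and 2-fold difference (dashed), where 33 points lie at or below the lower dashed line and 11 at or above the upper. Right, number of pairs by island length in tough minus tender in kb, with a tail to 9600 bp on the tough side and to 3000 bp on the tender side.

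Crowded bins held longer regions on the other autosomes as well, and chromosome 19 had more crowded bins. Regions were therefore set side by side in bins with like numbers of regions. In bins of 11 to 20 regions, 9.96% of the chromosome 19 regions (25 of 251, Wilson 95% interval 6.84 to 14.3%) and 8.28% (7.42 to 9.22%) of the others were broad. In bins of 21 to 30 the shares were 12.1% (9.19 to 15.8%) and 10.9% (9.42 to 12.7%). In bins of 31 to 50 they were 19.8% (51 of 258, 15.4 to 25.1%) and 13.7% (12.0 to 15.7%), with median lengths of 3400 and 3000 bp. The shares in bins of up to 5 and of 6 to 10 regions, 3.03% and 7.81% on chromosome 19, had wide intervals that included those elsewhere. The intervals of the broad share overlapped in every class, and by the least in the most crowded one. The share called in both groups was lower on chromosome 19 in each of the 5 classes, and in bins of 21 to 30 regions the intervals were apart, at 63.1% (58.1 to 67.8%) and 71.6% (69.2 to 73.9%).

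**Figure D5:**
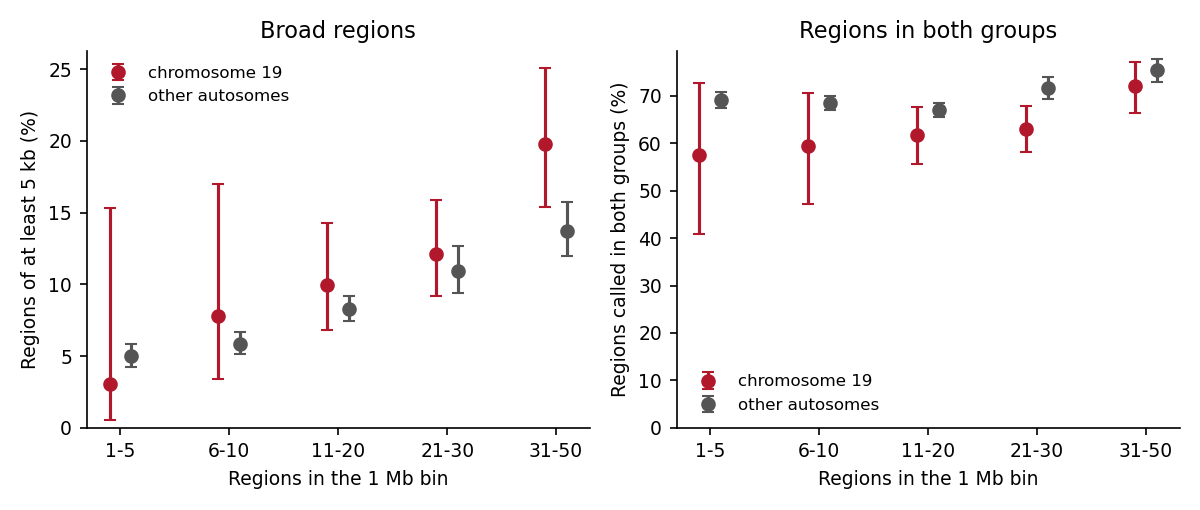
Share of regions of at least 5 kb (left, %) and share called in both groups (right, %), by the number of regions in the 1 Mb bin, for chromosome 19 (red) and the other autosomes (grey), with Wilson 95% intervals. The broad share is higher in more crowded bins in both, up to 19.8% and 13.7% in bins of 31 to 50 regions, and the share in both groups is lower on chromosome 19 in each class.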

How the data were processed

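H3K4me3 ChIP-Seq was analysed from 1 pooled library per group, tender and tough, as the labels group them. By the study's methods, reads were aligned with Maq to bosTau4 with duplicate and ambiguous reads removed, and peaks were called with SICER (version 1.1 per the labels) in 200 bp windows with gaps of up to 400 bp and an E-value of 100. For each library the authors deposited peak lists whose values are SICER scores, without a control library. Every score column was mapped to its sample (0 columns left out). A second pair of lists from the same libraries had other coordinates (no peak shared position and score), and was used as an alternative chosen after seeing the data. The peak totals that the study gives are those of the second lists and not of the lists used here, so the build and settings in its methods may not hold for the lists used here.

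Starts were counted from 1. Peaks overlapping by at least 1 bp were merged, and peaks with a single partner were paired. Mean reads per window were solved from peaks of 1 window, and the reads of each peak from its score, up to a score of 260 and within 1.5e-09, where exactly 1 number of reads gave the score. The study gives a total of unique reads for both groups together, but the total reads of each library behind these lists are unknown. Ranks run over the 29 autosomes. Intervals are exact Poisson, Wilson, order-statistic or, for ratios of reads, exact binomial at 95%, and cover counting error only.

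Regions named were the 10 highest by summed score, the 5 widest, the 5 highest single-group peaks per group, the 5 extreme pairs by score and by length in each direction, the 5 longest gaps and the fullest bins and largest clusters with ties. Members, rules and gene lists were chosen with earlier results of these data known. The comparisons within length and crowding classes and the counts per gene were added after seeing the data. All 59 listed genes were found on chromosome 19 in RefSeq, but no annotation of the lists' build was used, so the lists gave no result. Other alternatives are given in the closing section. Analyses used Python 3.11.15, scipy 1.17.1, numpy 2.4.6, pandas 2.3.3 and matplotlib 3.10.9, and the scripts were tested on simulated data.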

Additional observations from a re-analysis of the deposited data

How the results depend on the processing

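Chromosome 19 remained the densest autosome under all 7 alternatives for density, of which 5 are listed as moved: 13.6 regions per Mb from tender peaks alone, 12.2 from tough peaks alone, 8.49 from peaks scoring 2 times the lowest value or more, 16.7 with the length taken from the first region, and 49.8 bp per kb as covered length, a different unit that could not fall within the interval. The share in clusters was 7.37% (rank 4) with gaps of up to 10 kb and 59.98% (rank 3) with gaps of up to 50 kb. The share of length in gaps was the lowest of the 29 autosomes throughout, at 33.1% for gaps of at least 250 kb, 11.3% for at least 1 Mb, and 26.0% with the stretch before the first region. The second lists gave 25.8%, and 27.0% with that stretch. The fullest bin of 5 Mb, chr19:40000001-45000000, held 28.8 regions per Mb, and that of 500 kb, chr19:43000001-43500000, held 25 regions. Neither lay at the place of the fullest bin of 1 Mb, so that place depended on the bin size. In the second lists the fullest bin of 1 Mb held 41 regions and began at 35 Mb.

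The rank of the median score depended most on the choice of peaks. With the same minimum score the median was 97.1 in tender (rank 2) and 90.8 in tough (rank 5), and with shared peaks only it was 75.4 (rank 15) and 66.4 (rank 9). The share of peaks in a single group was 43.3% in tender and 36.8% in tough at a reciprocal overlap of 50%, both the highest of the autosomes. The other autosomes together rose too under this rule, to 37.1% and 29.7%. Under that minimum score the share was 2.75% and 1.36% (ranks 25 and 18), against 3.99% and 1.38% on the others. In the second lists it was 22.0% in tough (rank 1) and 26.4% in tender (rank 2), against 15.6% and 21.3% on the other autosomes. Pairs past 2-fold were 3.70% (tender) and 4.55% (tough) after centring, and 0.694% (tough) by reads.

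Of 52 alternatives, 27 stayed within the counting interval of the value (within 10% for the share of length), 25 moved and 0 reversed. Median lengths and median reads per peak stayed within it throughout, but the share of broad peaks was not among these results. No paired analysis was possible because each group was 1 library, so no library could be left out either. The counts by score limits of 180 were added after seeing the data, as were those of the second lists and the stretch before the first region. Peaks near the lowest score rest on about 12 reads, so at this depth their absence from the other group cannot be told apart from counting error.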

Other observations

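The second pair of deposited lists, from the same libraries in other coordinates, held 841 tender and 779 tough peaks on chromosome 19. Its positions cannot be set against those above, because chromosome X reached 148.8 Mb in the lists used above and 87.9 Mb in the second lists, so all positions in this paragraph belong to the second lists. There the stretch without a peak at the start of chromosome 19 was shorter. A tender peak lay at chr19:775601-777000 with a score of 44.6 and 17 reads, and no tough peak overlapped it. The next region began with a tough peak at chr19:4165801-4169200 with a score of 24.7 and 12 reads. The gap between these was the longest of the chromosome in those lists, at 3.39 Mb, against 1.81 Mb in the lists above. It ranked 25 of 29 from the longest, so 4 autosomes had a shorter longest gap there, while none did in the lists above. The chromosome again had the highest density (15.2 regions per Mb), and the share of its regions called in both groups, 60.2%, was the lowest of the 29 autosomes, against 68.1% on the others together. Its broad share of 11.2% ranked 3 of 29. Among the peaks of each group the broad share was 4.52% in tender (rank 2) and 9.37% in tough (rank 4), so it was not the highest in those lists. The median score per window was the lowest of the 29 in both groups, 5.72 in tender and 4.31 in tough.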
